A study of Mus musculus with 14 samples.

Results

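Midbrain dopaminergic neurons fall into groups with different marker genes, and 10 such markers are described here. Ndnf, Satb1, Igf1, Vav3, Col25a1 and Grin2c mark the ventral tier of the substantia nigra. Calb1, Calb2, Lpl and Slc17a6 mark the ventral tegmental area and the dorsal tier of the nigra. The 10 genes were given as 2 lists of 6 and 4 symbols, and every probe set that the array annotation assigns to 1 of these symbols alone was taken. That gave 26 probe sets, 17 of ventral tier genes and 9 of tegmental and dorsal genes, out of 34945 probe sets tested for 18193 genes. A probe set is a group of short oligonucleotides on an Affymetrix array that reads 1 stretch of a transcript.

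Ventral tier neurons project mainly to the dorsal striatum and are the dopaminergic neurons that degenerate first in Parkinson's disease. Neurons of the ventral tegmental area and the dorsal tier, many of which contain the calcium-binding protein calbindin, are relatively spared. Markers of the 2 kinds of neuron are therefore often read side by side when dopaminergic neurons are injured.

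The libraries came from ventral midbrain of mice in which transferrin receptor 1, by which cells take up iron carried on transferrin (gene Tfrc, Tfr1 in the labels), was deleted in dopaminergic neurons, and from controls that were heterozygous for the Tfr1 allele. All mice were F2 animals of 129Sv and C57BL/6 and carried RiboTag, a tagged ribosomal protein through which ribosome-bound mRNA of the tagged cells is pulled down. There were 4 Tfr1-null libraries and 3 control libraries at 3 weeks, and 3 Tfr1-null libraries and 4 control libraries at 10 weeks, 14 in all. The series text places early neurodegeneration at the younger age and late neurodegeneration at the older. Which Cre line made the deletion was not given in the sources used here. Nothing in the labels says that the libraries of a group came from separate animals, so p-values measure the spread between libraries, which may be partly technical.

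The values are log2 signals, so that 1 unit is a factor of 2. Array medians were 6.41 to 6.47 at 3 weeks and 7.36 to 7.43 at 10 weeks, so the ages may have been scaled apart, and no level at one age is set against the other. By Xist and the Y-linked gene Eif2s3y, males gave 1 of the 7 libraries of 3 weeks and all 7 of 10 weeks. The ages thus also differed in sex, and the 1 male library of 3 weeks was control library 2. Tfrc was read by 3 control probe sets on the array, named 5, M and 3 after the part of the transcript they cover. At 3 weeks the 5 probe set gave 6.88 to 7.73 in Tfr1-null libraries 2 to 4 and 9.50 to 9.59 in the controls, whereas Tfr1-null library 1 gave 9.67. At 10 weeks the M probe set gave 11.39 to 11.69 in Tfr1-null, against 9.17 to 9.86 in control libraries 2 to 4, whereas control library 1 gave 11.43. Each of these probe sets had the same direction at the other age. At 3 weeks the M probe set gave 10.70 to 10.98 in Tfr1-null libraries 2 to 4 and 8.80 to 8.86 in the controls. The 5 probe set at 10 weeks gave 7.79 to 9.29 in Tfr1-null and 9.63 to 10.44 in control libraries 2 to 4. Tfr1-null library 1 had 8.82 and control library 1 had 8.55 in these readings. These 2 libraries thus went against their labels, and the members' results are given for all 14 libraries and for the 12 without them.

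The promoter table used here, from RefSeq (GRCm38.p6), was matched by 6 of the 10 member genes, with 13 start sites. The 250 bases before 1 annotated start are shown for 3 ventral tier genes with probe sets that fell at 10 weeks and for 1 tegmental gene whose probe sets passed no test, 5′ to 3′ on the gene's strand, so that the 2 lists can be compared. The windows are unlike in position. By the annotated gene spans, the Igf1 window lay inside its gene and those of Vav3 and Grin2c partly so. The Slc17a6 window lay wholly upstream. Capitals mark matches to 2 of the motifs searched, OTX and NR4A.
Grin2c (chr11:115267244-115267493, - strand): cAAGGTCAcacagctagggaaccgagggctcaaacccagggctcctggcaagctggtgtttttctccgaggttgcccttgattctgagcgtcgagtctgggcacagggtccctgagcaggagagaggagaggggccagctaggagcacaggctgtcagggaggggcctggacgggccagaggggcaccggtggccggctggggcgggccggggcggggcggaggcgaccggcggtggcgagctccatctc
Igf1 (chr10:87860861-87861110, + strand): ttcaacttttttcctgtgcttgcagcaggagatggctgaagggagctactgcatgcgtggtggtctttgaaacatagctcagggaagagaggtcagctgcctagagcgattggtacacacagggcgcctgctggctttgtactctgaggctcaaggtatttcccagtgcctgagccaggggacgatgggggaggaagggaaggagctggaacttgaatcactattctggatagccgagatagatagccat
Vav3 (chr3:109340433-109340682, + strand): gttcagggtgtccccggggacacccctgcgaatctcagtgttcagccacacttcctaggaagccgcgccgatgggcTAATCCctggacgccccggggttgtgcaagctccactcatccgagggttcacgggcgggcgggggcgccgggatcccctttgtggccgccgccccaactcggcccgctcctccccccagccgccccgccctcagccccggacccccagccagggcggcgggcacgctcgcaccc
Slc17a6 (chr7:51621580-51621829, + strand): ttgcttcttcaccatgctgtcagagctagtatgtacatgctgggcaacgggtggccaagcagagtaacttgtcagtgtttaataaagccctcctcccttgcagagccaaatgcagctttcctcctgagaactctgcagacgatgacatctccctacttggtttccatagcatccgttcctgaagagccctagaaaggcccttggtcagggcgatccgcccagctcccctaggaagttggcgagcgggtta

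On both strands of the 250 bases, 4 motifs of factors known from midbrain dopaminergic neurons or from low iron and oxygen were searched: AAGGTCA for NR4A, TAATCC for OTX, ACAAT for SOX and ACGTG for HIF. AAGGTCA stood in the Grin2c window at position -249 from the start and in 4.08% of all 32851 promoters of that length. TAATCC stood in the Vav3 window shown, at -174, and in 6.25% of all promoters. ACAAT stood in a window of another Vav3 start and of the other Slc17a6 start, and in 27.7% of all promoters, whereas ACGTG was in 0 of the 13 member windows and in 16.6% of all promoters. None of the 4 motifs was shared by the 3 ventral tier windows shown. These matches describe letters only.

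Ventral tier markers were lower in Tfr1-null than in control neurons at 10 weeks, and tegmental markers were mostly not called. Over the 12 libraries, 12 of 17 ventral tier probe sets passed the test at 10 weeks, all lower and by 1.72- to 5.76-fold, and they covered all 6 genes. Of the 9 tegmental and dorsal probe sets, 1 passed, an Lpl probe set that was higher. At 3 weeks 1 of 17 ventral tier probe sets (Grin2c) and 1 of 9 tegmental ones (Calb2) passed, both lower. The test was limma's moderated test with all 4 groups in 1 fit, and a probe set was called at a Benjamini-Hochberg adjusted p under 0.05 over all 34945. Of all probe sets, 0.624% were called lower at 3 weeks, 4.79% lower at 10 weeks and 4.54% higher at 10 weeks.

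The same counts over all 14 libraries were much smaller. At 3 weeks 0 of 26 member probe sets were called, each with an adjusted p of 1, where 0% of all probe sets were called. At an unadjusted p under 0.05 the 14-library fit counted 3 of the 26 and 1391 of all 34945 at 3 weeks. At 10 weeks 1 ventral tier probe set, of Satb1, was called lower, where 0.303% of all probe sets were. With each age fitted alone on the 12 libraries, 5 ventral tier probe sets were called at 3 weeks, where 1.7% of all probe sets were called lower, but 3 at 10 weeks, where 0.409% were. Those 3 were probe sets of Ndnf, Satb1 and Grin2c, and all 3 were among the 12 called with both ages in 1 fit. The 10-week count of ventral tier probe sets thus depended on whether the ages shared 1 estimate of spread.

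**Figure D1:**
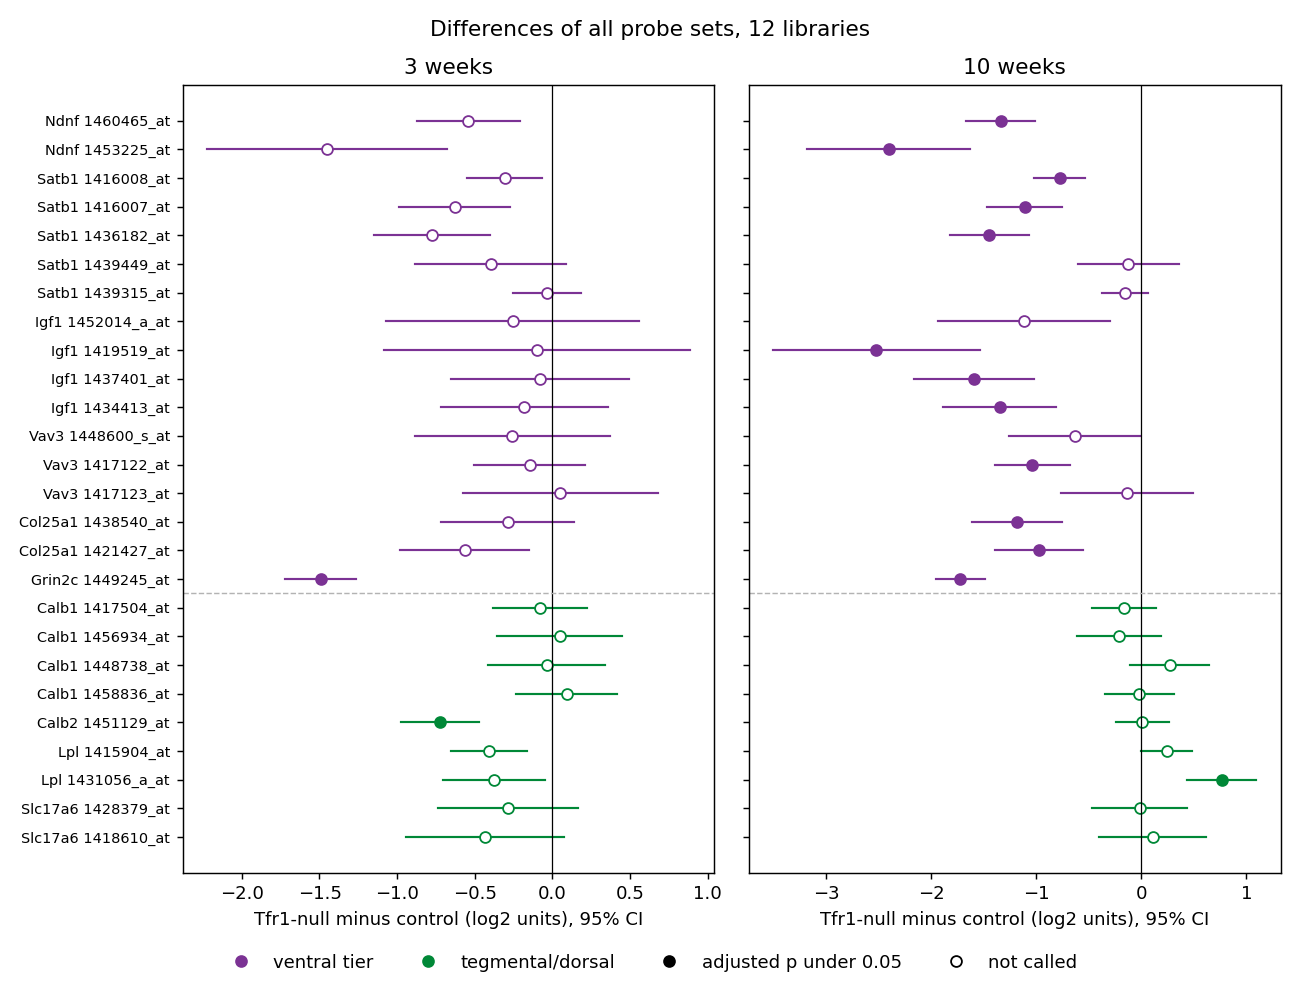
Difference of Tfr1-null minus control (log2 units) for each of the 26 probe sets over 12 libraries, at 3 weeks (left) and 10 weeks (right), with 95% confidence intervals; filled points have an adjusted p under 0.05. At 10 weeks all 17 ventral tier points lie below 0 and 12 are filled, whereas the tegmental and dorsal points lie around 0 with 1 filled point, an Lpl probe set at 0.77.

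Grin2c encodes the GluN2C subunit of the NMDA-type glutamate receptor and over 12 libraries had the smallest p of all members at both ages. At 3 weeks its signal was 7.58, 7.61 and 7.72 in Tfr1-null libraries 2 to 4, against 9.17, 9.05 and 9.17 in the controls. At 10 weeks it was 8.34, 8.23 and 8.41 in the Tfr1-null libraries, against 10.23, 9.92 and 10.02 in control libraries 2 to 4. The groups did not overlap at either age. The 2 doubted libraries stood with the opposite genotype: Tfr1-null library 1 at 3 weeks had 9.15, and control library 1 at 10 weeks had 8.28. Over 12 libraries Grin2c was lower by 2.81-fold at 3 weeks (log2 difference -1.49, SE 0.10, limma adjusted p 8.53e-05) and by 3.30-fold at 10 weeks (-1.72, SE 0.10, adjusted p 2.14e-05). Over all 14 the differences were -1.11 (SE 0.44, adjusted p 1) and -1.28 (SE 0.44, adjusted p 0.148). Its 10-week difference minus its 3-week difference was -0.23, with a 95% interval of -0.56 to 0.09.

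Ndnf encodes a secreted neurotrophic factor of neurons, and its 2 probe sets moved alike. The brighter one, 1460465_at, had 12.30, 12.20 and 12.49 in Tfr1-null libraries 2 to 4 at 3 weeks, against 12.95, 12.86 and 12.81 in the controls. In 10-week Tfr1-null libraries it had 12.02, 12.55 and 12.11, against 13.46, 13.48 and 13.77 in control libraries 2 to 4. Neither pair of groups overlapped, but Tfr1-null library 1 at 3 weeks, at 13.02, lay above every control of its age, and control library 1 at 10 weeks, at 11.83, lay below every Tfr1-null library. Over 12 libraries the difference was -0.54 at 3 weeks (SE 0.15, limma adjusted p 0.167, not called) and -1.34 at 10 weeks (SE 0.15, adjusted p 0.000575). The dimmer probe set, 1453225_at, differed by -1.45 at 3 weeks (adjusted p 0.0955) and by -2.41 at 10 weeks (SE 0.35, adjusted p 0.0026), a 5.31-fold lower signal. With each age fitted alone, both probe sets passed at 3 weeks (adjusted p 0.0371 and 0.0181) and 1460465_at passed at 10 weeks (adjusted p 0.0411). Over all 14 libraries the 10-week differences were -0.91 and -1.66 (adjusted p 0.207 and 0.216).

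Igf1 encodes insulin-like growth factor 1, a secreted growth and survival factor, and 3 of its 4 probe sets were called at 10 weeks. Probe set 1419519_at had 9.51, 9.63 and 9.61 in Tfr1-null libraries 2 to 4 at 3 weeks, against 9.57, 9.76 and 9.71 in the controls, and these groups overlapped. Values at 10 weeks were 8.56, 9.39 and 8.90 in the Tfr1-null libraries, against 10.59, 12.80 and 11.03 in control libraries 2 to 4. The 10-week groups lay apart, and control library 1, at 8.78, fell among the Tfr1-null values. The difference at 10 weeks was -2.52 (SE 0.45, limma adjusted p 0.0068), the largest of any member probe set in this fit. Both ages shared 1 estimate of spread in that SE. Standard deviations of Tfr1-null and control groups over 12 libraries were 0.06 and 0.10 at 3 weeks, but 0.42 and 1.17 at 10 weeks. Probe sets 1437401_at and 1434413_at were also lower at 10 weeks, by -1.60 (adjusted p 0.00459) and -1.35 (adjusted p 0.00762). The brightest probe set, 1452014_a_at, was not called: it had 9.96, 11.68 and 10.16 in the Tfr1-null libraries at 10 weeks, against 11.34, 11.71 and 12.10 in control libraries 2 to 4. Tfr1-null library 2 lay within the control range there, and the difference was -1.12 (SE 0.37, adjusted p 0.0865). The 4 probe sets of Igf1 therefore disagreed on the call though not on the direction. None of them was called with 10 weeks fitted alone. With all 14, 1419519_at differed by -1.85 at 10 weeks (adjusted p 0.145). Over 12 libraries the 3-week differences of the 4 probe sets ran from -0.26 to -0.08, with none called.

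Col25a1 encodes a transmembrane collagen of neurons. Its brighter probe set, 1438540_at, had 11.78, 11.81 and 11.92 in Tfr1-null libraries 2 to 4 at 3 weeks, against 12.22, 12.14 and 12.01 in the controls. The 10-week values were 11.28, 12.11 and 11.60 in the Tfr1-null libraries, against 12.98, 12.56 and 13.00 in control libraries 2 to 4. The groups lay apart at both ages, and control library 1 at 10 weeks, at 11.57, stood among the Tfr1-null libraries. The difference was -0.29 at 3 weeks (SE 0.19, limma adjusted p 0.802) and -1.19 at 10 weeks (SE 0.19, adjusted p 0.00461). The dimmer probe set, 1421427_at, differed by -0.57 at 3 weeks (adjusted p 0.288) and by -0.98 at 10 weeks (adjusted p 0.0107). Tfr1-null library 1 at 3 weeks, at 11.99 and 9.86, was just below the lowest control for both probe sets. Over all 14 libraries the 10-week differences were -0.87 and -0.63 (adjusted p 0.14 and 0.302). Neither probe set was called with 10 weeks fitted alone on the 12 libraries.

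Satb1 encodes a chromatin-organising nuclear protein, and 3 of its 5 probe sets were called at 10 weeks. The brightest, 1416008_at, had 10.92, 10.88 and 10.82 in Tfr1-null libraries 2 to 4 at 3 weeks, against 11.08, 11.28 and 11.17 in the controls. At 10 weeks it had 11.18, 11.04 and 11.18 in the Tfr1-null libraries, against 12.08, 11.73 and 11.93 in control libraries 2 to 4. Here control library 1 at 10 weeks, at 11.67, lay above every Tfr1-null library, which held for 1 of the 17 ventral tier probe sets. This was the member called at 10 weeks over all 14 libraries, with a difference of -0.72 (SE 0.12, limma adjusted p 0.0351). In 11 of the 14 fits that left out 1 library in turn, no ventral tier probe set was called. Over 12 libraries the difference was -0.31 at 3 weeks (adjusted p 0.326) and -0.78 at 10 weeks (SE 0.11, adjusted p 0.00192).

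The other called Satb1 probe sets placed the doubted control with the Tfr1-null libraries. Probe set 1416007_at had 10.88, 10.81 and 10.87 in 10-week Tfr1-null libraries against 11.87, 12.37 and 11.65 in control libraries 2 to 4, and control library 1 had 10.15. It was lower by -1.11 (SE 0.16, limma adjusted p 0.00255), and 1436182_at by -1.45 (SE 0.17, adjusted p 0.000751). At 3 weeks they differed by -0.63 and -0.78 (adjusted p 0.121 and 0.0661). Probe set 1439449_at differed by -0.12 at 10 weeks and was not called (adjusted p 0.779). Probe set 1439315_at lay below the 25th percentile of every array, so its difference of -0.16 says little. Over all 14 libraries 1416007_at differed by -0.66 and 1436182_at by -1.09 at 10 weeks (adjusted p 0.373 and 0.116). With 10 weeks fitted alone on the 12 libraries, 1436182_at was the only Satb1 probe set called (limma adjusted p 0.0496).

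Vav3 encodes a guanine nucleotide exchange factor, and 1 of its 3 probe sets was called. Probe set 1417122_at had 7.73, 7.75 and 7.77 in the Tfr1-null libraries at 10 weeks, against 8.53, 8.61 and 9.22 in control libraries 2 to 4. Those groups lay apart, and control library 1 had 7.47. The difference was -1.04 (SE 0.16, limma adjusted p 0.00388). At 3 weeks it was -0.15 (adjusted p 0.943). The brightest probe set, 1448600_s_at, overlapped between the groups at 10 weeks, with 8.79, 9.73 and 9.74 in Tfr1-null against 9.58, 10.50 and 10.10 in control libraries 2 to 4, and differed by -0.64 (adjusted p 0.192). Without Tfr1-null library 1 of 10 weeks it differed by -0.32, and over all 14 libraries by -0.35. Probe set 1417123_at differed by -0.13 (adjusted p 0.819), and by 0.12 over all 14. With all 14 libraries the 10-week difference of 1417122_at was -0.71 (adjusted p 0.199). Fitting 10 weeks alone on the 12 libraries also ended its call.

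**Figure D2:**
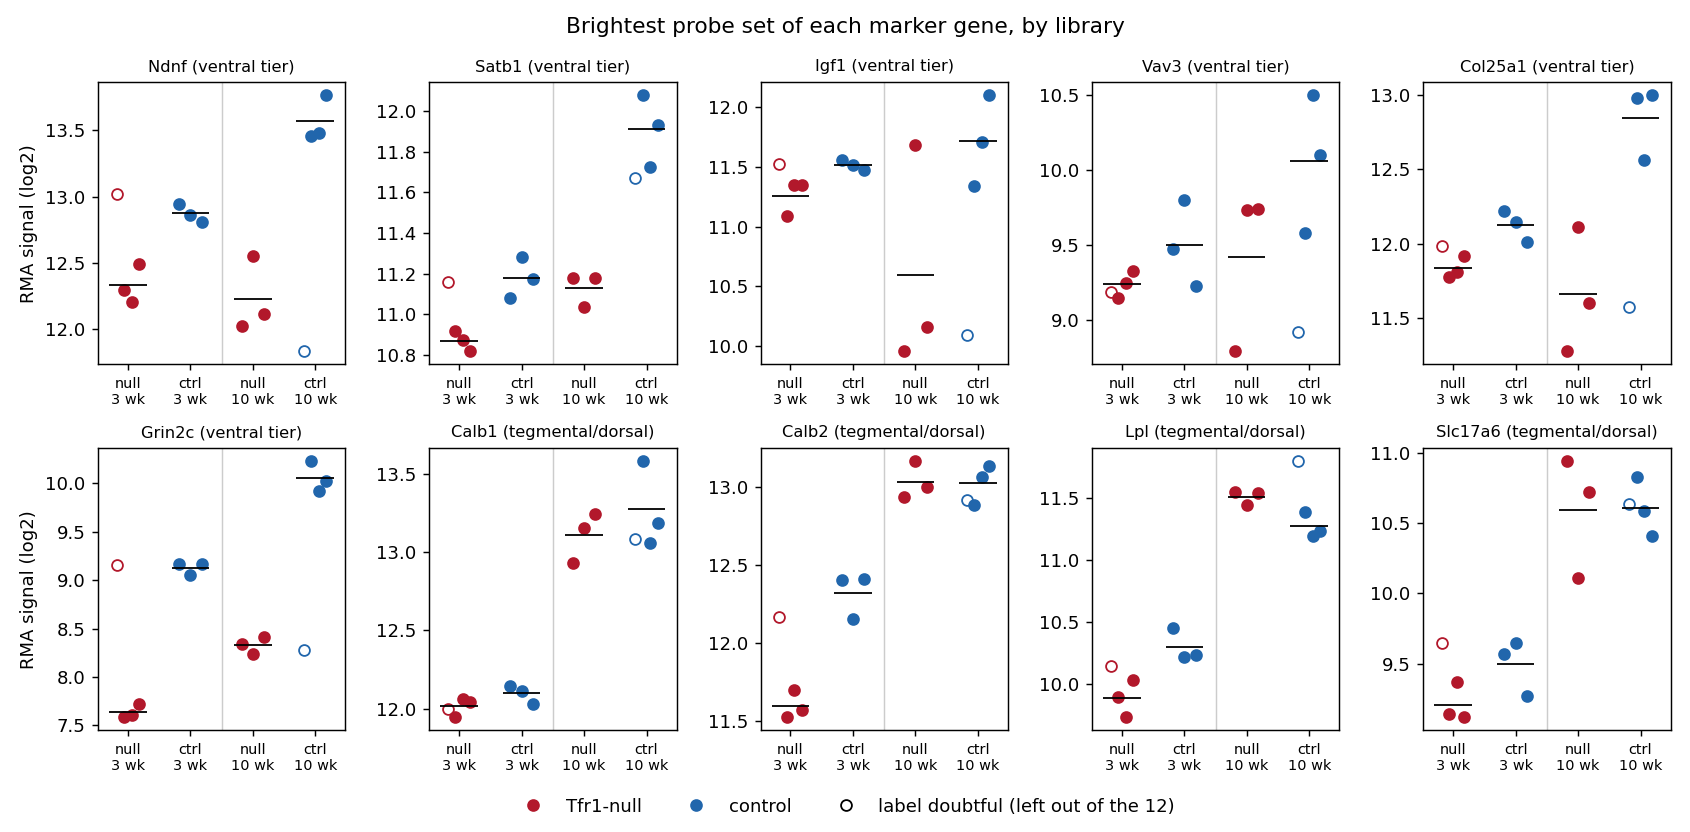
RMA signal (log2) of the brightest probe set of each of the 10 genes in every library; points are libraries, bars are group means over the 12 libraries, and open points are the 2 libraries with doubtful labels. In Grin2c the open Tfr1-null point at 3 weeks, at 9.15, lies among the controls and the open control point at 10 weeks, at 8.28, lies among the Tfr1-null libraries, whereas for Calb1 and Slc17a6 the groups overlap at both ages.

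Among tegmental and dorsal markers, Calb2, which encodes the calcium-binding protein calretinin, was lower at 3 weeks. It had 11.52, 11.70 and 11.57 in Tfr1-null libraries 2 to 4, against 12.40, 12.15 and 12.41 in the controls. The groups lay apart, and Tfr1-null library 1, at 12.17, lay in the control range. The difference was -0.72 (SE 0.11, limma adjusted p 0.0108), a 1.65-fold lower signal, and over all 14 libraries it was -0.58 (SE 0.15, adjusted p 1). Leaving out control library 1 or 3, or Tfr1-null library 2 or 4, of 3 weeks each ended this call, as did the replicate number as a block. At 10 weeks Calb2 had 12.93, 13.16 and 13.00 in the Tfr1-null libraries, against 12.88, 13.06 and 13.13 in control libraries 2 to 4. These groups overlapped, with a difference of 0.01 and a 95% interval of -0.25 to 0.26, or 0.03 over all 14 libraries.

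Calb1 encodes calbindin, the calcium-binding protein by which tegmental and dorsal neurons are commonly recognised. Its brightest probe set, 1417504_at, had 11.94, 12.06 and 12.04 in Tfr1-null libraries 2 to 4 at 3 weeks, against 12.15, 12.11 and 12.03 in the controls. At 10 weeks it had 12.93, 13.15 and 13.24 in the Tfr1-null libraries, against 13.58, 13.06 and 13.19 in control libraries 2 to 4. The groups overlapped at both ages, and the doubted libraries, at 12.00 and 13.08, lay within them. The differences over 12 libraries were -0.08 (95% interval -0.38 to 0.22) and -0.17 (-0.47 to 0.14), and over all 14 they were -0.08 and -0.12. Probe set 1456934_at differed by 0.05 at 3 weeks and -0.22 at 10 weeks, and 1448738_at by -0.04 and 0.27. None of the 4 Calb1 probe sets was called at either age, and 1 of them, 1458836_at, lay below the 25th percentile of every array.

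Lpl encodes lipoprotein lipase, which releases fatty acids from lipoprotein triglycerides. Probe set 1431056_a_at had 8.47, 8.30 and 8.75 in Tfr1-null libraries 2 to 4 at 3 weeks, against 9.05, 8.83 and 8.77 in the controls. At 10 weeks it had 9.91, 10.18 and 10.20 in the Tfr1-null libraries, against 9.54, 9.26 and 9.20 in control libraries 2 to 4. The Tfr1-null libraries thus lay under the controls at 3 weeks and over them at 10 weeks, and control library 1 at 10 weeks, at 10.03, lay among the Tfr1-null libraries. The difference was -0.38 at 3 weeks (SE 0.15, limma adjusted p 0.426) and 0.77 at 10 weeks (SE 0.15, adjusted p 0.0109), a 1.70-fold higher signal. The 10-week call did not hold with array weights, with the replicate number as a block or with 10 weeks fitted alone, and over all 14 libraries the difference was 0.59 (adjusted p 0.126). The brighter probe set, 1415904_at, had the same order of groups, with 11.55, 11.45 and 11.54 in 10-week Tfr1-null libraries against 11.39, 11.19 and 11.23 in control libraries 2 to 4. It was not called at either age, with differences of -0.41 at 3 weeks (adjusted p 0.15) and 0.24 at 10 weeks (adjusted p 0.209).

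Slc17a6 encodes a vesicular glutamate transporter, which dopaminergic neurons that also release glutamate use to load vesicles. Probe set 1428379_at had 9.14, 9.37 and 9.12 in Tfr1-null libraries 2 to 4 at 3 weeks, against 9.57, 9.65 and 9.27 in the controls. At 10 weeks it had 10.94, 10.11 and 10.73 in the Tfr1-null libraries, against 10.83, 10.59 and 10.41 in control libraries 2 to 4. The groups overlapped at both ages. The difference was -0.29 at 3 weeks (95% interval -0.74 to 0.17) and -0.02 at 10 weeks (-0.47 to 0.43), and over all 14 libraries it was -0.18 and -0.03. The second probe set, 1418610_at, differed by -0.43 and 0.11, and neither was called. Intervals this wide leave room for a moderate change in either direction.

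The 2 kinds of marker are described as lists by their medians, with no test between them. Over 12 libraries the median difference of the 17 ventral tier probe sets was -0.29 at 3 weeks and -1.12 at 10 weeks. That of the 9 tegmental and dorsal probe sets was -0.29 at 3 weeks and 0.01 at 10 weeks, and over all probe sets the medians were 0.01 and 0.00. Over all 14 libraries the ventral tier medians were -0.25 and -0.72, and the tegmental ones -0.18 and 0.03. By the brightest probe set of each gene over 12 libraries, they were -0.30 and -1.15 for the ventral tier and -0.35 and -0.01 for the tegmental and dorsal genes. At 3 weeks over 12 libraries Tfr1-null lay wholly below control for 10 of 17 ventral tier probe sets and 3 of 9 tegmental ones. Of all probe sets, 10.3% did. At 10 weeks this held for 12 of 17 and 0 of 9, where 10.8% of all probe sets did. In the opposite direction it held at 10 weeks for the 2 Lpl probe sets, where 10.4% of all probe sets did. Over all 14 libraries the counts wholly below were 2 of 17 and 2 of 9 at 3 weeks, where 4.05% of all probe sets were. At 10 weeks they were 1 of 17 and 0 of 9, where 4.7% were, and no member probe set lay wholly above. In a pull-down from tissue, fewer neurons of a kind and less RNA per neuron cannot be told apart.

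**Figure D3:**
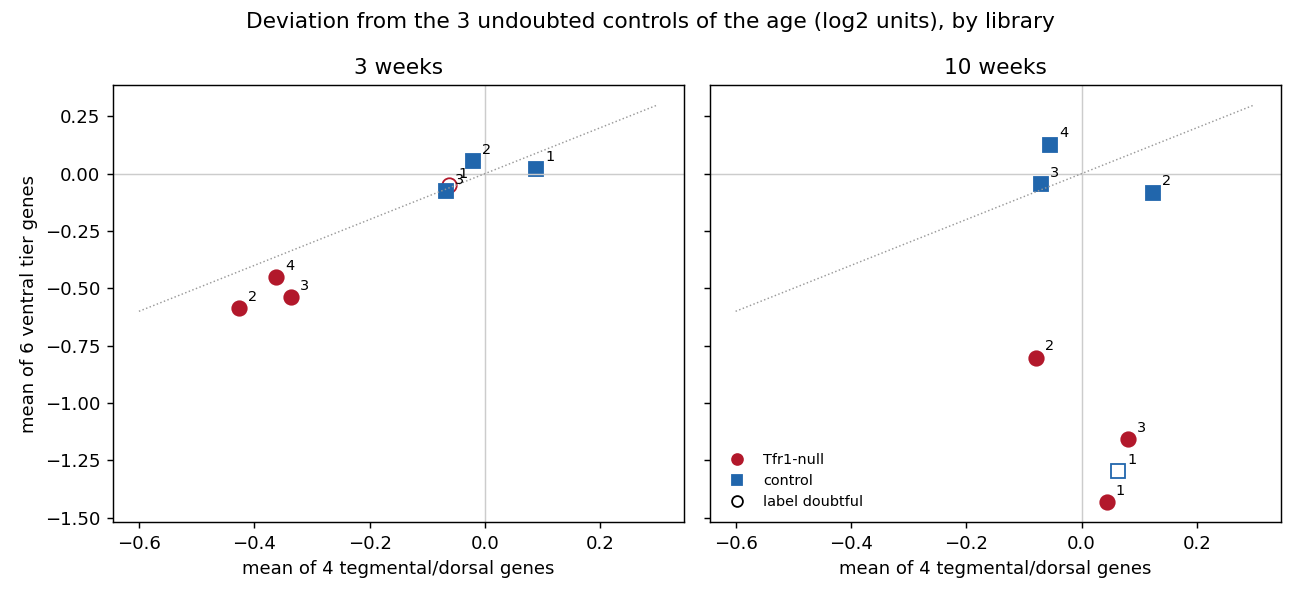
Mean deviation of the 6 ventral tier genes (vertical) against that of the 4 tegmental and dorsal genes (horizontal), each from the mean of the 3 undoubted controls of its age, in log2 units; points are libraries with their replicate number, open ones have doubtful labels, and the dotted line marks equal deviation. At 3 weeks Tfr1-null libraries 2 to 4 are displaced on both axes, and at 10 weeks the Tfr1-null libraries and control library 1 are displaced downwards only, by -1.43 to -0.80.

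The same contrast appeared library by library, each gene taken by its brightest probe set. At 3 weeks the ventral tier genes deviated from the mean of the controls by -0.59, -0.54 and -0.45 in Tfr1-null libraries 2 to 4, and the tegmental genes by -0.43, -0.34 and -0.36. At 10 weeks the ventral tier genes deviated by -1.43, -0.80 and -1.16 in the 3 Tfr1-null libraries, and the tegmental genes by 0.04, -0.08 and 0.08. Tfr1-null library 1 of 3 weeks deviated by -0.05 and -0.06, within the range of the controls. Control library 1 of 10 weeks deviated by -1.30 and 0.06, within the range of the Tfr1-null libraries. The plot of library deviations shows these positions. They are descriptions with no test, since the controls of each age also set its zero.

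Whether a difference changed with age was tested probe set by probe set as the 10-week difference minus the 3-week difference. None of the 26 passed, over 14 libraries, where 0% of all probe sets were called, or over 12, where 0.177% were. At an unadjusted p under 0.05 limma counted 5 of the 26 over 14 libraries and 11 over 12, against 2604 and 4164 of all 34945. Over 12 libraries the smallest limma adjusted p was that of Lpl 1431056_a_at, 0.0733, with a change of 1.14 (95% interval 0.68 to 1.61). Calb2 followed with 0.73 (adjusted p 0.13), and then the other Lpl probe set, 1415904_at, with 0.65 (adjusted p 0.154). Igf1 1437401_at changed by -1.51 (adjusted p 0.159). The difference between the ages was thus not established for any single member.

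Other genes of the same 2 regions, from lists taken by their brightest probe set, were set beside the members. Of 11 other ventral tier genes, 3 were called lower at 3 weeks and 5 at 10 weeks over 12 libraries, with none higher and median differences of -0.28 and -0.53. Counted by probe set and not by gene, 0.624% of all tested were called lower at 3 weeks and 4.79% at 10 weeks. Anxa1, which encodes the phospholipid-binding protein annexin A1, differed by -4.04 at 3 weeks (limma adjusted p 8.75e-05) and by -4.45 at 10 weeks (adjusted p 3.01e-05). Atp2a3, a calcium pump of the endoplasmic reticulum, differed by -3.69 and -2.70, and Aldh1a7, an aldehyde dehydrogenase, by -1.01 and -2.75, all called. Lmo3, a nuclear cofactor, was called at 10 weeks, with -0.94 (adjusted p 0.00105), as was the dopamine receptor gene Drd2, named after its value was seen, with -0.85 (adjusted p 0.00264). Over all 14 libraries 0 of these 11 were called at 3 weeks and 1, Lmo3, at 10 weeks, with -1.13 (adjusted p 0.0326). The shares of all probe sets called lower there were 0% and 0.303%.

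Of 10 other tegmental and dorsal genes, 0 were called by limma at either age, with median differences of -0.12 and 0.40, and at an unadjusted p under 0.05 there were 1 at 3 weeks and 4 at 10 weeks. The 2 with the smallest p were Cck and Tacr3, both lower. The neuropeptide gene Cck differed by -0.36 at 3 weeks and -0.34 at 10 weeks (limma adjusted p 0.203 and 0.0749). The tachykinin receptor gene Tacr3 differed by -0.12 and -0.47 (adjusted p 0.957 and 0.0789). Lower genes were 8 of the 10 at 3 weeks but 4 of the 10 at 10 weeks, where differences ran from -0.47 to 0.61. Among the higher genes at 10 weeks, Otx2 differed by 0.50 (limma unadjusted p 0.0464, adjusted p 0.191). Of 14 general dopaminergic genes, which include Slc6a3 of the ventral tier list, 0 were called at 3 weeks (3 at an unadjusted p under 0.05) and 1 at 10 weeks, the transcription factor gene Foxa1, with -0.86 (adjusted p 0.000394). Their median differences were -0.12 and -0.22. Beside both lists, 1.08% of all probe sets were called in either direction at 3 weeks and 9.33% at 10 weeks. The dopaminergic list was bright in all groups, with log2 summed levels at 3 weeks of 16.01 to 16.08 in Tfr1-null libraries 2 to 4 and 16.14 to 16.19 in controls. At 10 weeks they were 16.66 to 16.90 in Tfr1-null libraries and 16.93 to 17.02 in control libraries 2 to 4. The groups did not overlap at either age over 12 libraries. Of single probe sets, 10.3% lay wholly lower in Tfr1-null at 3 weeks and 10.8% at 10 weeks. Over all 14 libraries the Tfr1-null sums were 16.01 to 16.13 at 3 weeks, still below the controls. The 10-week control sums were 16.66 to 17.02 there, and the groups overlapped. Foxa1 over all 14 libraries was not called at 10 weeks (-0.68, limma adjusted p 0.0589), where 0.303% of all probe sets were called lower.

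**Figure D4:**
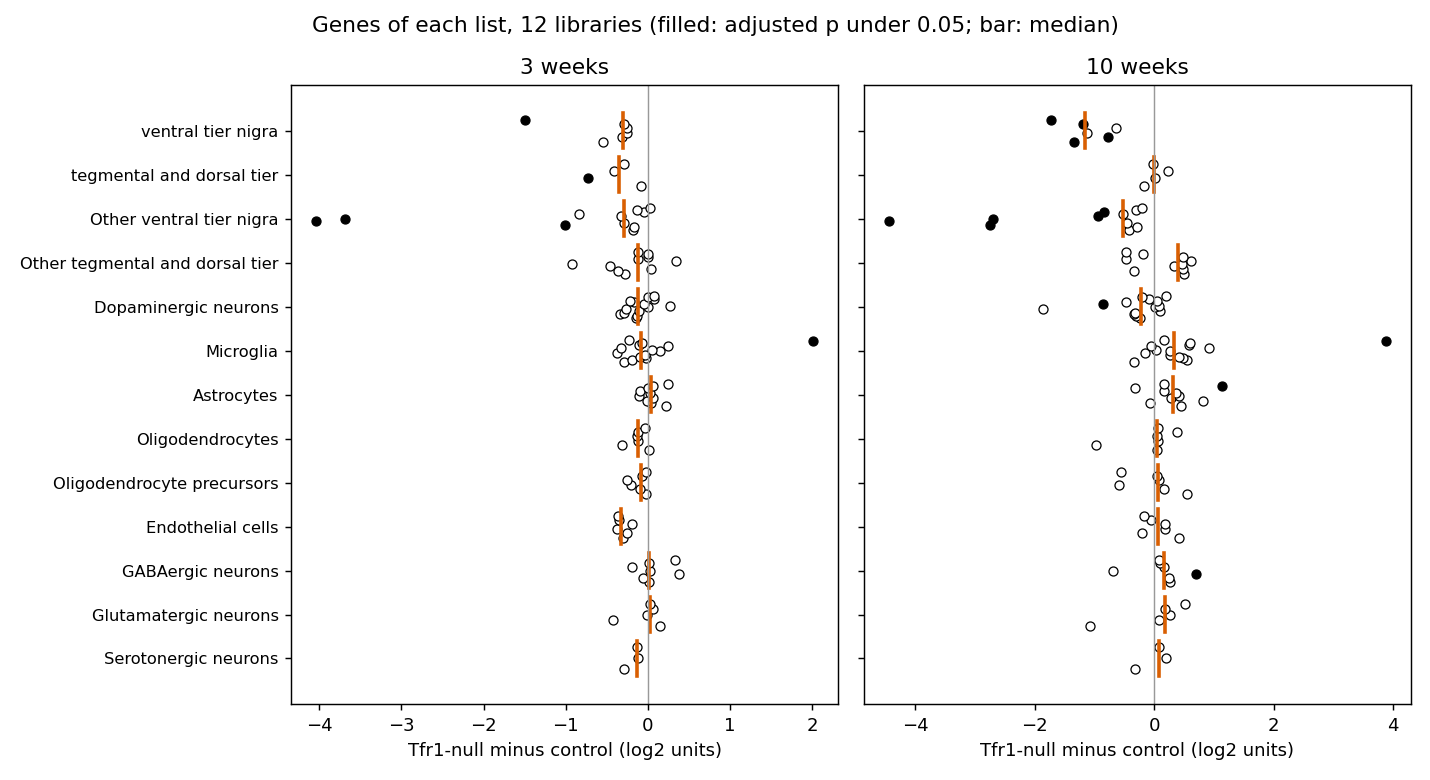
Difference of Tfr1-null minus control (log2 units) for the brightest probe set of each gene, by list, at 3 weeks (left) and 10 weeks (right) over 12 libraries; filled points have an adjusted p under 0.05 and the orange bar is the list's median. The ventral tier members have their median at -1.15 at 10 weeks and the tegmental members at -0.01, while Anxa1 is the leftmost point at both ages and Cd68 the rightmost.

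Markers of other cells of the midbrain were read in the same way, since RiboTag pull-downs carry some RNA of neighbouring cells. None of their genes lay below the 25th percentile of the arrays in all libraries of an age. At 10 weeks the log2 summed level of 14 microglial genes was 12.84 to 13.54 in Tfr1-null libraries and 12.25 to 12.88 in control libraries 2 to 4, and that of 10 astrocyte genes was 14.94 to 15.24 and 14.77 to 15.07. That of 5 glutamatergic genes was 12.43 to 12.53 in Tfr1-null libraries and 12.00 to 12.16 in control libraries 2 to 4, without overlap. Of single probe sets, 10.4% lay wholly higher in Tfr1-null at 10 weeks over 12 libraries. Over all 14 libraries the glutamatergic control sums were 12.00 to 12.64, and the groups overlapped. At 3 weeks the microglial sums were 11.54 to 12.06 in Tfr1-null libraries 2 to 4 and 11.71 to 11.85 in controls. The endothelial sums of 6 genes were 8.91 to 9.07 in Tfr1-null libraries 2 to 4 and 9.21 to 9.48 in controls. Over all 14 libraries the endothelial Tfr1-null sums were 8.91 to 9.68 and overlapped the controls. The part of these cells in the marker differences was not tested.

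Few single genes of these lists were called. Over 12 libraries 1 of 14 microglial genes was called, at both ages: Cd68, which encodes a lysosomal membrane glycoprotein. It differed by 2.01 at 3 weeks (limma adjusted p 0.000145) and by 3.87 at 10 weeks (adjusted p 6.67e-07). The microglial list had median differences of -0.08 at 3 weeks, with 10 of 14 genes lower, and 0.34 at 10 weeks, with 3 lower. In astrocytes 1 of 10 was called, at 10 weeks, the transcription factor gene Sox9 with 1.14 (limma adjusted p 0.0383). In GABAergic neurons 1 of 7 was called, at 10 weeks, the vesicular GABA transporter gene Slc32a1 with 0.70 (adjusted p 0.00923). Over all 14 libraries Cd68, Sox9 and Slc32a1 were not called. The shares of all probe sets called there were 0% at 3 weeks and 0.738% at 10 weeks. Cd68 differed there by 1.52 at 3 weeks and by 3.03 at 10 weeks (limma adjusted p 0.0698 at 10 weeks). Sox9 differed by 0.93 and Slc32a1 by 0.49 at 10 weeks (adjusted p 0.136 and 0.207). Over 12 libraries 0.458% of all probe sets were called higher at 3 weeks and 4.54% at 10 weeks (1.08% and 9.33% in either direction). With lists this short, 1 call says little about a list. At either age 0 of 5 glutamatergic, 0 of 6 oligodendrocyte, 0 of 6 oligodendrocyte precursor, 0 of 6 endothelial and 0 of 3 serotonergic genes were called, and at an unadjusted p under 0.05 limma counted 1 glutamatergic and 1 oligodendrocyte precursor gene at 10 weeks and none of the others. Cbln1, a secreted synaptic organiser on the glutamatergic list, differed by 0.51 at 10 weeks (adjusted p 0.0721) and the vesicular glutamate transporter gene Slc17a7 by -1.08 (adjusted p 0.349). In the remaining lists without a call, the 2 genes with the smallest p at either age are given with the difference at that age. They were Mobp (0.39 at 10 weeks) and Mog (-0.97 at 10 weeks) for oligodendrocytes, Pdgfra (0.54 at 10 weeks) and Gpr17 (-0.59 at 10 weeks) for their precursors, Cldn5 (0.41 at 10 weeks) and Tek (-0.36 at 3 weeks) for endothelium, and Tph2 (-0.32 at 10 weeks) and Htr1a (-0.13 at 3 weeks) for serotonergic neurons.

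For the member of each kind with the smallest p, the 3 genes with the most similar values over the 14 libraries were taken, each library centred on the mean of its age, among 9851 genes brighter than the median probe set. For Grin2c they were Anxa1 (Pearson r 0.980, Spearman coefficient 0.890), Arhgef15, a guanine nucleotide exchange factor gene (0.980 and 0.846), and Sncg, which encodes gamma-synuclein (0.979 and 0.864). For Calb2 they were Ier3 (0.919 and 0.903), Phactr2 (0.903 and 0.841) and Maged2 (0.891 and 0.935). Over 12 libraries Sncg differed by -2.08 at 3 weeks and -2.60 at 10 weeks, and Ier3 by -1.23 and -0.41. The points of these correlations share libraries and genotype groups, so the coefficients describe likeness only.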

How the data were processed

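Ribosome-bound RNA of 14 ventral midbrain pull-downs was hybridised to Affymetrix mouse arrays after amplification with the NuGEN Ovation system, per the labels' protocols. The deposited values are log2 signals. Partek 6.5 and RMA are named in the submitters' processing notes, with no settings. Array medians differ by age. Whether both ages were normalized together was not given in the sources used here.

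Of 45101 probe sets, 34958 had 1 gene symbol, 932 had several and 9211 none in the platform annotation. After 13 array controls were left out, 34945 were tested, with no filter and no further normalization. Libraries were grouped by title into genotype and age. limma 3.58.1 (lmFit, eBayes, R 4.3.3) compared Tfr1-null with control at each age and the 2 differences, with Benjamini-Hochberg adjustment over all probe sets. The fit was tested on simulated data with equal spread in every library and no wrong label. That test therefore cannot speak to unequal spread between ages or to doubtful labels. The number of arrays limits the precision, and intervals cover 95%. The members, the marker lists and the 2 libraries left out were chosen with earlier results of these data known.

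All member probe sets are named. Of the other lists, up to 4 called genes with the smallest p, or 2 where none was called, are named, and Drd2 was named after its value was seen as the fifth call of its list. Alternatives were a replicate block, array weights, median centring, a filter on dim probe sets, 1 probe set per gene, each age alone and leaving out each library.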

Additional observations from a re-analysis of the deposited data

Results flagged for a closer look

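In groups of 4 libraries, 1 library stood far from the other 3 in 8 of 52 cases by Dixon's criterion (the gap to the nearest library over the range, given in brackets), where chance gives about 1 in 20. In 2 cases it was Tfr1-null library 1 at 3 weeks, the highest for Grin2c (0.915) and for Slc17a6 1418610_at (0.881). In 2 more it was control library 1 at 10 weeks, the lowest for Ndnf 1460465_at (0.84) and for Grin2c (0.841). Both libraries are those whose Tfrc values went against their labels. The other 4 cases were Tfr1-null library 2 at 3 weeks, lowest for Igf1 1419519_at (0.835), Tfr1-null library 4 at 3 weeks, highest for Calb1 1448738_at (0.921), control library 4 at 10 weeks, highest for Satb1 1439315_at (0.872), and control library 2 at 10 weeks, highest for Calb1 1458836_at (0.85). The last 2 probe sets lay below the 25th percentile of every array. The 52 cases share libraries, and many share a gene, so they are not independent. Whether 8 of 52 exceeds the 1 in 20 was therefore not tested.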

How the results depend on the processing

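Counts of called probe sets depended on the 2 doubted libraries. The 14-library counts over all probe sets were 0 at 3 weeks, 258 at 10 weeks and 0 for the difference between ages. Over 12 libraries they were 378, with 1 ventral tier and 1 tegmental member, 3260, with 12 and 1, and 62. Over 14 libraries array weights gave 544 at 3 weeks, with 1 ventral tier and 1 tegmental member, and 6 at 10 weeks, the replicate block gave 5 at 10 weeks, and 10 weeks fitted alone gave 1, each of these 3 with 0 ventral tier members at 10 weeks. Leaving out 1 library gave 0 to 45 at 3 weeks (45 without Tfr1-null library 1), with 0 to 1 tegmental members, 15 to 3152 at 10 weeks (15 without Tfr1-null library 3 of 3 weeks, 3152 without control library 1), with 0 to 12 ventral tier and 0 to 1 tegmental members, and 0 to 71 for the difference between ages.

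Over 12 libraries the 3-week count of 378 became 233 with the replicate block, 2035 with array weights and 1115 with the age alone, with 2, 7 and 5 ventral tier members. Tegmental members were 0 with the block and 2 with weights. Leaving out 1 library gave 206 (without control library 3 of 3 weeks) to 472 (without control library 3 of 10 weeks) at 3 weeks, with 1 to 3 ventral tier (3 without control library 3 of 10 weeks) and 0 to 1 tegmental members. At 10 weeks the count of 3260 became 1605 with the block, 1086 with weights, 2015 with 1 probe set per gene and 287 with the age alone. The ventral tier count was 4 with 1 probe set per gene and 3 with the age alone, while the block and the weights each kept the same 12. The tegmental count was 0 under all 4. Leaving out 1 library left 12 to 13 ventral tier members. The block left 4 calls for the difference between ages, and leaving out 1 library gave 12 to 118. The cause of these changes was not tested, and 1 probe set per gene also left fewer probe sets to test.

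At 10 weeks uncalled differences turned sign in 4 member probe sets, alternatives other than 14 or 12 libraries having been compared for the brightest of each gene. Vav3 1417123_at was -0.13 over 12 and 0.12 over 14, and Calb1 1458836_at was -0.02 over 12 and 0.03 over 14. Calb2 over 12 libraries was -0.0066 after median centring and -0.0656 to 0.061 without 1 library, and over 14 libraries -0.0323 to 0.082. Slc17a6 1428379_at ran from -0.1942 to 0.224 over 12 and from -0.2014 to 0.2168 over 14. Of the other values for single probe sets, 480 kept direction and side of the threshold, 16 passed it only under the alternative and 15 lost it. Libraries of the same replicate number did not deviate together (correlations -0.015 to 0.123 at 3 weeks and -0.028 to 0.081 at 10 weeks), so the block joins libraries that share only a number. Dim probe sets of Satb1 and Calb1 carry little signal.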
